A study of Drosophila melanogaster with 10 samples.

Results

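The genes described here encode the nuclear subunits of the mitochondrial respiratory chain and of the mitochondrial ribosome in the fly brain. They were taken by their symbols: names starting with ND-, COX4 to COX8, Cyt-c1, UQCR or ATPsyn, the names SdhA to SdhD, and names starting with mRpL or mRpS and a number. This gave 142 of the 11621 genes in the deposited table: 35 of complex I, 4 of complex II, 8 of complex III, 10 of complex IV, 13 of complex V, and 46 of the large and 26 of the small subunit of the mitochondrial ribosome. The complex was read from the symbol alone: ND-MLRQ is counted here with complex I, although its human counterpart is a subunit of complex IV, and mRpS30 and mRpS18A with the small subunit, although their human counterparts sit in the large one. RNA was sequenced from dissected brains of Drosophila melanogaster males at 4 to 7 days of age, with the genotype W1118, labelled as wild type. W1118 is a laboratory strain with white eyes, and all libraries share it. In 5 libraries the diet was low in protein and high in carbohydrates (LPHC, a protein to carbohydrate ratio of 0 to 1, so without protein), and in the other 5 it was high in protein and low in carbohydrates (HPLC, a ratio of 1 to 2). Both diets had a strength of 360 g/L. Per the series design, the diets set apart the taste response to sucrose, which was higher on HPLC. The labels do not say how many brains made up a library or whether libraries came from separate cultures, so p-values reflect only how these libraries vary, and that variation may be technical.

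Complexes I to IV pass electrons from NADH and succinate to oxygen, and complexes I, III and IV pump protons across the inner mitochondrial membrane as they do so. Complex V, the ATP synthase, lets the protons flow back and makes ATP. Most subunits are encoded in the nucleus, while a few core subunits are encoded in mitochondrial DNA and are made by the mitochondrial ribosome, whose own proteins are all nuclear. Neurons and photoreceptors rely heavily on this chain for their ATP. The subunits encoded in mitochondrial DNA are not matched by the symbols used here and are not analysed here.

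Levels are normalised counts, the authors' read counts divided by a size factor per library. Total reads ran from 19834344 to 38402635 per library, and 3 reads equal 2.09 to 4.19 normalised counts, depending on the library. All pairs of libraries within a diet differed by more than sampling noise, with chi-square per degree of freedom from 5.24 to 52.9. The 13 neuron markers, all present, took 0.745% to 0.882% of counts in LPHC and 0.617% to 0.746% in HPLC libraries. Within each diet the lowest value was that of LPHC replicate 1 and of HPLC replicate 3, and the other HPLC libraries held 0.699% to 0.746%. Since brains were sequenced in bulk, fewer cells of a type and less RNA per cell cannot be told apart.

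The subunit genes were abundant and ordered by complex. Levels are per 1000 bases of merged exons (Ensembl annotation) and over all 10 libraries. Medians are of genes with a mean of at least 10 normalised counts. They leave out 7 low paralogs of complexes I, IV and V, and would be lower there with them. The median was 6940 normalised counts in complex V, 6432 in complex IV, 4499 in complex II, 2977 in complex I and 2252 in complex III. The mitochondrial ribosome stood well under these, at 539 for the large and 534 for the small subunit. The highest gene was ATPsynC, the membrane ring of the ATP synthase through which protons pass, at 20795 per 1000 bases. ATPsynbeta, which holds the catalytic sites of the same enzyme, followed at 13697. The highest mitochondrial ribosomal gene, mRpL28, had 1322 per 1000 bases. At the other end stood duplicated paralogs of subunit genes and a pair of genes with no paralog label, ND-MWFE of complex I at 30.9 and mRpL34 at 43.4.

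**Figure D1:**
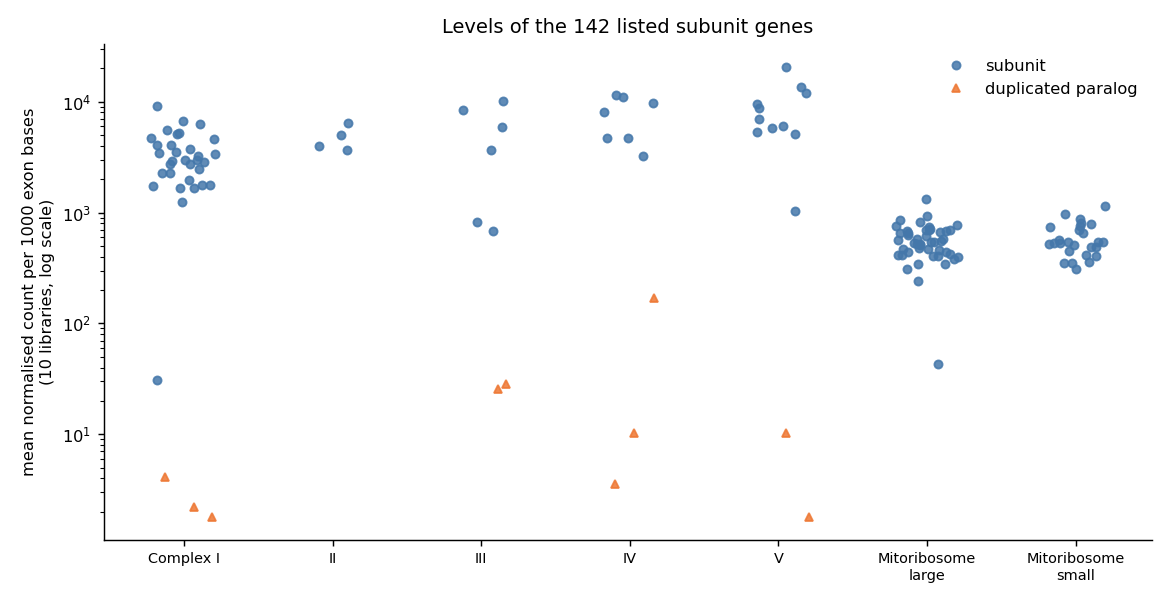
Mean normalised count per 1000 exon bases over 10 libraries (vertical axis, log scale) for each of the 142 listed genes, grouped by complex; circles are subunits and triangles duplicated paralogs. Among genes with a mean of at least 10, complexes IV and V have the highest medians (6432 and 6940) and the mitochondrial ribosome has a median of 538. The paralogs lie far under their complexes.

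The main comparison asked how these transcripts differ between the diets. It was tested by limma on log2(normalised count + 1) over the 9896 genes whose mean was at least 10, two-sided, with Benjamini-Hochberg adjustment over all of them and a threshold of 0.05. Differences are given as HPLC minus LPHC on that log2 scale with their standard error (SE). Of the 142 genes 135 passed the filter. The other 7, all duplicated paralogs, were not tested.

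Of the 135 tested genes 9 were called higher and 1 lower on HPLC, where 40.9% of all tested genes were called, 22.1% higher and 18.9% lower. The share of these genes called was 7.41%. The 9 higher genes were ATPsyngamma, ATPsynC, ATPsynO and ATPsynD of the ATP synthase, COX7A, COX4 and COX6B of cytochrome c oxidase, and ND-75 and ND-13B of complex I. The lower gene was ND-51, also of complex I. Called genes differed by 0.27 or less on the log2 scale, and the HPLC mean of ATPsyngamma was 20.3% above its LPHC mean. None of the 135 genes differed 2-fold, which 6.77% of all tested genes did, and 133 of 135 (98.5%) differed by less than 0.3 against 71.4% of all tested genes. The exceptions were ND-MWFE at −0.62 ± 0.29 (adjusted p = 0.102) and Cyt-c1L at −0.39 ± 0.23 (adjusted p = 0.188). The 95% interval of the difference lay within 1.5-fold either way for 131 of 135 genes, with ND-MWFE, Cyt-c1L, UQCR-11L and mRpL34 as the others. The median SE was 0.076 for these genes and 0.075 for all tested genes. Values of the diets did not overlap for 3 genes, ND-75, ND-B14.5A and ATPsyngamma, against 29.2% of all tested genes, 17.4% with HPLC higher and 11.7% with HPLC lower. In all 3 HPLC was higher.

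The count of calls depended on single libraries, while the sign of each called gene did not. Among complexes I to V 9 genes were called higher with all libraries. Leaving out 1 library left 5 called higher without LPHC replicate 2 or HPLC replicate 4, 3 without LPHC replicate 5 or HPLC replicate 3 (41.8% of all tested genes called without the latter), and 2 without LPHC replicate 3 or 4 or HPLC replicate 5. It left 9 to 11 when LPHC replicate 1, HPLC replicate 1 or HPLC replicate 2 was left out. Calls over all tested genes also varied, with 2185 higher and 1866 lower with all libraries. They were 1972 and 1478 (LPHC replicate 3 left out), 2054 and 1591 (LPHC replicate 4) and 1986 and 1522 (HPLC replicate 5). ATPsyngamma and ATPsynC were called in all 10 fits that each leave out 1 library and COX7A in 7. ATPsynO, ATPsynD, COX4 and ND-51 were called in 4 each, and COX6B, ND-75 and ND-13B in 3 each. ND-51 kept its call without LPHC replicate 3 or 4 or HPLC replicate 3 or 4 and lost it without any of the other 6 libraries. All 10 called genes kept their sign in all 24 alternatives tried.

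**Figure D2:**
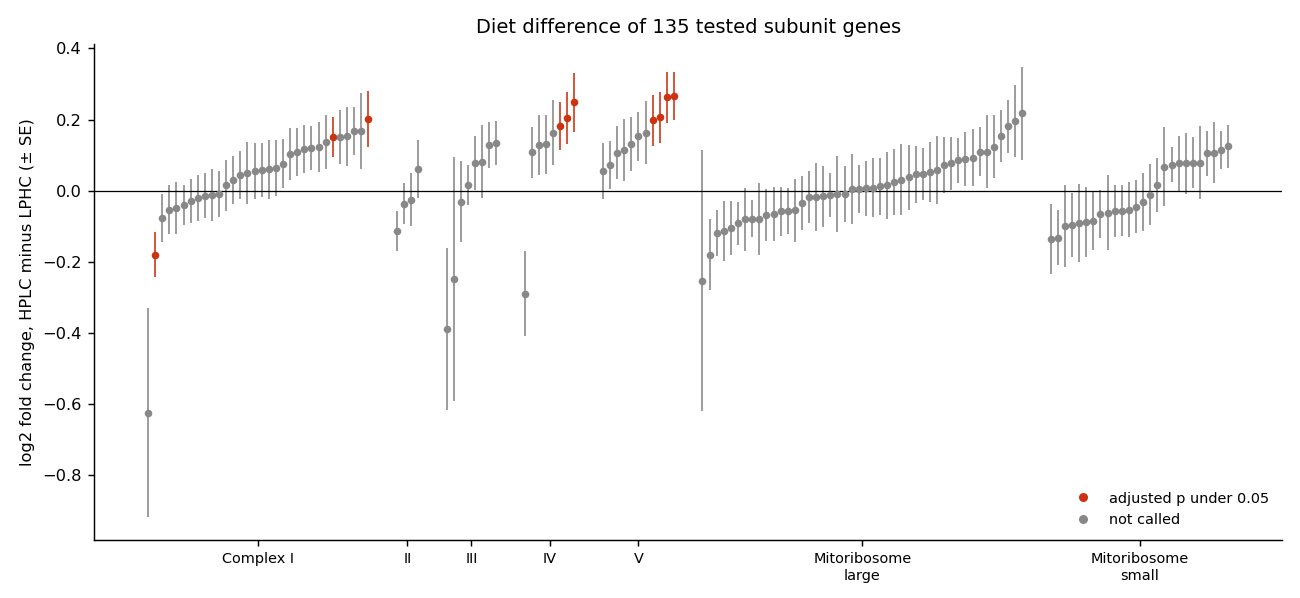
Log2 difference HPLC minus LPHC (vertical axis; points with SE bars) of the 135 tested genes, sorted within each complex; red marks an adjusted p under 0.05. All 11 points of complex V lie above 0, and the 72 of the mitochondrial ribosome spread to both sides of 0 with none called.

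Complex V held the 2 called genes with the largest differences. All 11 tested genes had a difference above 0, and 4 were called higher (36.4%, where 40.9% of all tested genes were called, 22.1% higher). The median was 0.15, where that over all tested genes was −0.03, and it stayed above 0 in all 24 alternatives, at 0.08 without HPLC replicate 3 and 0.04 with upper-quartile scaling. ATPsyngamma, the rotating shaft that links the membrane ring to the catalytic head, had 8235, 7759.9, 7434, 6842 and 7930.0 normalised counts in LPHC libraries 1 to 5 and 8715, 8480.4, 10193, 9068 and 9486 in HPLC libraries 1 to 5. Every HPLC library lay above the highest LPHC library. The difference was 0.27 ± 0.07 (limma, adjusted p = 0.00462, 95% interval 0.12 to 0.41). ATPsynC had 38568, 33480.2, 34241, 34183 and 35944 in the LPHC libraries and 42131, 38411, 48536, 39902 and 43049 in the HPLC libraries. Here 4 of 5 HPLC libraries lay above all LPHC libraries, and HPLC 2 fell just under LPHC 1. The difference was 0.26 ± 0.07 (adjusted p = 0.00731), and the exons of ATPsynC overlap those of other annotated transcripts by 142 bases.

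ATPsynO and ATPsynD belong to the stator stalk that holds the catalytic head still. ATPsynO had 7380.3, 6461, 6329.9, 6028 and 6612 normalised counts in the LPHC libraries and 7141, 7107, 8816, 7295 and 7530.5 in the HPLC libraries. HPLC 3 stood apart at the top, and the other HPLC values lay on both sides of LPHC 1, the highest LPHC library. The difference was 0.21 ± 0.07 (adjusted p = 0.0301, and 0.0528 without HPLC replicate 3). ATPsynD had 5157, 4628, 4741, 4285 and 4782 on LPHC and 5052, 5037, 6365, 5223 and 5439 on HPLC, with LPHC 1 again among the HPLC values and the other LPHC values under them. The difference was 0.20 ± 0.07 (adjusted p = 0.0351). ATPsynbeta, the catalytic subunit and the second most abundant member, had 31319, 33084, 29819.5, 30265 and 34812 in the LPHC libraries and 29855, 33775, 35309, 34117 and 34445 in the HPLC libraries. These groups overlapped throughout and the difference was 0.07 ± 0.07 (adjusted p = 0.407, 95% interval −0.07 to 0.21). ATPsyndelta, of the central stalk, was at 0.15 ± 0.07 (adjusted p = 0.0846). Of its 3817 annotated exon bases 1358 overlap CG2962 on the other strand, so its reads may be shared. The alpha subunit, blw, which is not matched by the symbols used, was called higher at 0.21 ± 0.06 (adjusted p = 0.00979). Its levels were 35172, 34387, 32731, 31541 and 34139 on LPHC and 38350.1, 36604, 39856, 38610.0 and 40333 on HPLC, with no overlap.

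**Figure D3:**
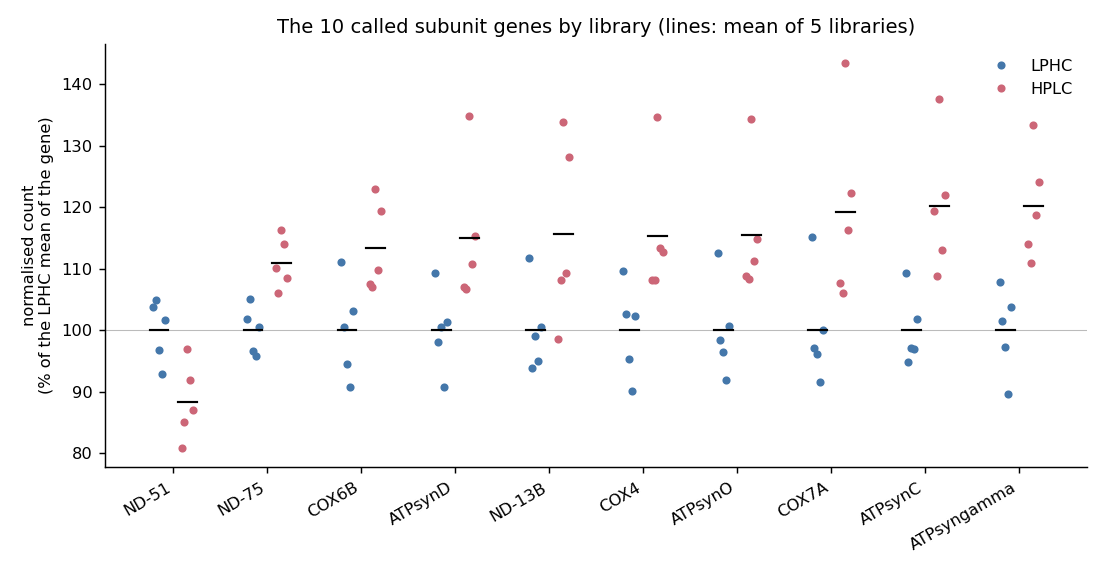
Normalised count of the 10 called genes in each library as a percentage of the gene's LPHC mean (vertical axis); points are libraries and black lines the means of 5. ND-51 lies lower on HPLC, the other 9 higher, the HPLC points lie clear of the LPHC points for ND-75 and ATPsyngamma, and HPLC 3 is the highest HPLC point of each of the 10.

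In complex IV, cytochrome c oxidase, 3 of 8 tested genes were called higher and none lower (37.5%, where 40.9% of all tested genes were called, 22.1% higher). The median difference was 0.15 and also stayed above 0 in all 24 alternatives, at 0.07 without HPLC replicate 3 and 0.04 with upper-quartile scaling. All 3 called genes encode nuclear subunits that surround the catalytic core. COX7A had 5942, 5015, 4959, 4728 and 5166 normalised counts in the LPHC libraries and 5556, 5476, 7402, 6006 and 6317 in the HPLC libraries. LPHC 1 lay within the HPLC values, and the other 4 LPHC libraries lay under all of them. The difference was 0.25 ± 0.08 (adjusted p = 0.0241). COX4 had 12131, 11352, 10555, 9973 and 11319 on LPHC and 11974, 11960.5, 14896, 12538 and 12474 on HPLC, a difference of 0.20 ± 0.07 (adjusted p = 0.0339, and 0.0619 without HPLC replicate 3). COX6B had 9087, 8223, 7741, 7435 and 8441 and 8795, 8757, 10062, 8992 and 9770.3, a difference of 0.18 ± 0.07 (adjusted p = 0.0398). In both genes LPHC 1 lay among the HPLC values, and the other 4 LPHC libraries lay under all of them. COX5A, the most abundant per length, was at 0.11 ± 0.07 (adjusted p = 0.255). Of the subunits that go by other symbols, levy and cype were at 0.08 ± 0.08 and 0.14 ± 0.11 (adjusted p = 0.409 and 0.35).

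Complex I had 2 genes called higher and 1 lower of 32 tested (9.38%, where 40.9% of all tested genes were called). Its median difference was 0.06 (−0.06 with upper-quartile and −0.05 with quantile scaling, −0.01 without HPLC replicate 3). Higher and lower calls met in the N module, the tip that takes electrons from NADH. ND-75, its large iron-sulphur subunit, had 14277, 14717, 13548, 13433 and 14094 normalised counts in the LPHC libraries and 15424, 14864, 16285, 15979 and 15201 in the HPLC libraries. All HPLC values lay above all LPHC values, by a narrow margin, and the difference was 0.15 ± 0.06 (adjusted p = 0.0405). ND-51, the flavoprotein that binds NADH, had 16114, 16297, 15027, 14419 and 15770.4 on LPHC and 12548, 13202, 15059, 14273 and 13520.3 on HPLC. Of its HPLC values 4 lay under all LPHC values, while that of HPLC 3 lay among them, and the difference was −0.18 ± 0.06 (adjusted p = 0.0335).

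Elsewhere in complex I only ND-13B was called. ND-B14.5A, an accessory subunit of the N module, had 1504, 1488, 1529.8, 1481 and 1533 in the LPHC libraries and 1558, 1579, 2055, 1643 and 1673 in the HPLC libraries. The diets did not overlap, HPLC 3 stood far above the rest, and the gene was not called at 0.17 ± 0.07 (adjusted p = 0.0551). ND-13B, in the Q module where electrons reach ubiquinone, had 1752, 1471, 1554, 1489 and 1575 on LPHC and 1545, 1696, 2099, 1714 and 2008 on HPLC. HPLC 1 lay among the LPHC values and HPLC 3 and 5 lay above all of them, and the difference was 0.20 ± 0.08 (adjusted p = 0.0487). None of the 17 tested genes of the membrane arm, which pumps the protons, was called by limma, with 1 at an unadjusted p under 0.05, and none was called by edgeR or DESeq2. Its median was 0.06. ND-MWFE, in that arm, had 25.7, 39.9, 34.9, 34.3 and 20.5 on LPHC and 30.6, 32.1, 9.83, 15.1 and 17.9 on HPLC, far under the other complex I genes. Its annotated exons overlap Nrk on the same strand and TppII on the other, so its reads may be shared.

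Complexes II and III had no called gene by limma. In complex II, which takes electrons from succinate and is also an enzyme of the citric acid cycle, the median was −0.03 (−0.07 without HPLC replicate 3, −0.14 with upper-quartile scaling, 0.10 with neuron-marker scaling). SdhA, its flavoprotein, had 13473, 15272, 14079, 14067 and 14620.1 normalised counts in the LPHC libraries and 12612, 13038, 13326, 13653 and 13427 in the HPLC libraries. Of the HPLC values 4 lay under all LPHC values, and the difference was −0.11 ± 0.06 (adjusted p = 0.117). SdhB, the iron-sulphur subunit, was at −0.04 ± 0.06 and the membrane anchors SdhC and SdhD at −0.03 ± 0.07 and 0.06 ± 0.08. No gene of complex II reached an unadjusted p under 0.05 by limma, edgeR called none, and DESeq2 called SdhA lower. In complex III, which moves electrons from ubiquinol to cytochrome c, the median was 0.05 (−0.06 with upper-quartile and with quantile scaling, −0.02 without HPLC replicate 3) and 1 gene reached an unadjusted p under 0.05. This was UQCR-C2, a core protein, which had 14277, 13381, 13317, 12913 and 13635 on LPHC and 14663, 13556, 16319.9, 15316 and 14386 on HPLC, at 0.13 ± 0.06 (adjusted p = 0.0911). Its partner UQCR-C1 was at 0.13 ± 0.07 (adjusted p = 0.13). edgeR called no gene of complex III, and DESeq2 called UQCR-C2 higher. Cyt-c-p, the cytochrome c that carries electrons on to complex IV, was at 0.08 ± 0.07 (adjusted p = 0.427).

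The mitochondrial ribosome had no called gene among 72. Only 1 reached an unadjusted p under 0.05, and edgeR and DESeq2, which called 40.7% and 38.8% of all genes they tested, also called none of the 72. Differences were above 0 for 36 and below 0 for 36, with medians of 0.01 for the large and −0.04 for the small subunit (−0.06 and −0.08 without HPLC replicate 3). They ran from −0.25 for mRpL34, which had 14.2 normalised counts on average, to 0.22 for mRpL33. The gene with the smallest p was mRpL46 of the large subunit. It had 540.3, 450.1, 412, 431 and 477 normalised counts in the LPHC libraries and 532, 507, 569, 504 and 498 in the HPLC libraries. LPHC 1 lay among the HPLC values and the other 4 LPHC values lay under them. The difference was 0.18 ± 0.07 (limma, adjusted p = 0.0633, and from 0.0110 without LPHC replicate 1 to 0.165 over the fits that each leave out 1 library).

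The most abundant mitochondrial ribosomal genes differed little between diets. mRpL28 had 1406 to 1736 in the LPHC and 1420.4 to 1768 in the HPLC libraries, at 0.01 ± 0.07 (95% interval −0.14 to 0.15). mRpS5, whose product sits where messenger RNA enters the small subunit, was at −0.07 ± 0.07 (95% interval −0.21 to 0.08). mRpS9 was at 0.07 ± 0.05. Lower values came from mRpL9, with 616, 560.4, 535, 539 and 582 on LPHC and 490.2, 505, 586, 514 and 514 on HPLC. Its HPLC values lay under all LPHC values in 4 of 5 libraries, and the difference was −0.12 ± 0.06 (adjusted p = 0.152, and from 0.0421 without HPLC replicate 3 to 0.307 over the fits that each leave out 1 library). mRpS29 and mRpS30 were at 0.12 ± 0.06 and 0.11 ± 0.05 (adjusted p = 0.109 and 0.104). Of the other small-subunit genes outside the symbols used, bonsai was at 0.12 ± 0.07 and tko, known from a bang-sensitive mutant, at −0.08 ± 0.07 (adjusted p = 0.197 and 0.39).

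Summed over genes, complexes I to V held 328395 to 372064 normalised counts on LPHC and 351104 to 424154 on HPLC. This was 1.27% ± 0.0831 of all LPHC counts and 1.30% ± 0.107 of all HPLC counts (SD, n = 5 each), and the groups overlapped. The mitochondrial ribosome held 35397.9 to 40610 on LPHC and 35339.6 to 42489.6 on HPLC, 0.136% ± 0.0100 and 0.130% ± 0.0105 of counts. Both sums were highest in HPLC 3, and LPHC 1 was the highest LPHC library for both.

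Library and gene length moved together with these values. HPLC 3 was the highest HPLC library for 121 of 135 genes (89.6%, against 32.7% of all tested genes) and LPHC 1 the highest LPHC library for 97 (71.9%, against 27.0%). The genes are short, with a median of 825 merged exon bases against 2135 for all tested genes, and 90 of 135 have at most 1000. Relative to its own diet's mean, the median of the 135 genes was 0.20 higher in HPLC 3 and 0.13 higher in LPHC 1 on the log2 scale. The 1279 other tested genes of at most 1000 bases were 0.19 and 0.11 higher there. The 455 genes of more than 8000 bases were lower there, at −0.30 and −0.18. The cause of this was not tested.

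**Figure D4:**
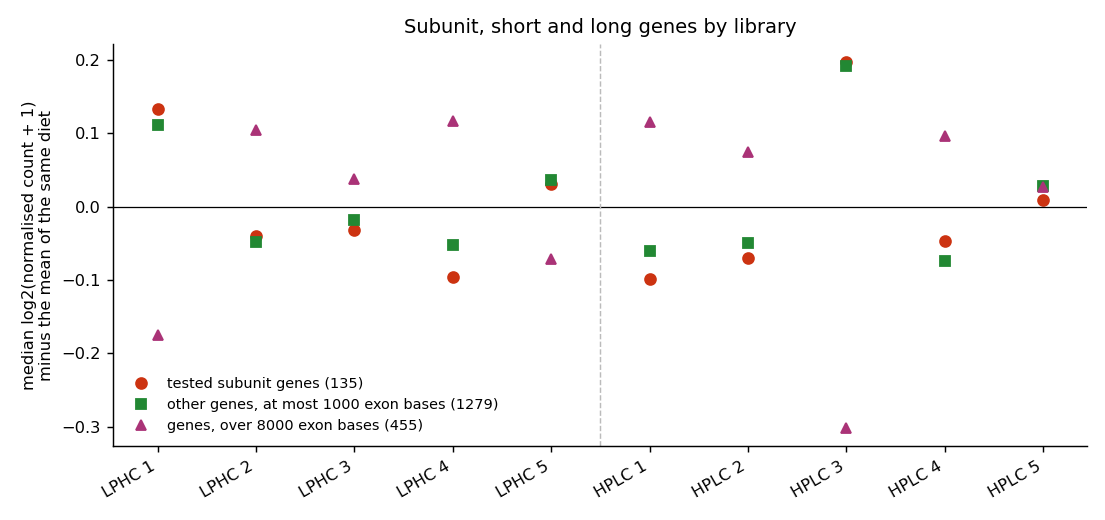
Median log2(normalised count + 1) minus the mean of the same diet (vertical axis) in each library, for the 135 tested subunit genes, 1279 other genes of at most 1000 exon bases and 455 genes over 8000. Subunit and other short genes move together, up in LPHC 1 (0.13 and 0.11) and HPLC 3 (0.20 and 0.19), and long genes are down in these 2 libraries (−0.18 and −0.30).

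A pair of alternatives added after the data were examined bears on this. With each library's trend over gene length removed, 15 genes of complexes I to V were called higher and 3 lower, and 1 mitochondrial ribosomal gene higher and 4 lower, where 48.1% of all tested genes were called. All 10 genes named as called were among them in the same direction, joined on the higher side by ND-B14.5A, ND-15, ND-39, ATPsynG, UQCR-C1 and UQCR-C2. The trend was taken against the mean of all 10 libraries, so a diet difference that follows gene length is removed too. As deposited, the median difference of other genes was 0.06 up to 700 exon bases and −0.06 over 8000. The medians of the subunit genes were lower with that adjustment, which it can bring about in short genes by construction. The median went from 0.08 to 0.05 for complexes I to V, from 0.06 to 0.02 for complex I, from 0.15 to 0.09 for complex IV and from −0.002 to −0.04 for the mitochondrial ribosome. The added lower genes of complexes I to V were ND-23 and COX4L, the ribosomal gene higher was mRpL46, and those lower were mRpL9, mRpL23, mRpS11 and mRpS16. Without both LPHC replicate 1 and HPLC replicate 3, complexes I to V had 11 genes higher and 2 lower, the mitochondrial ribosome 1 higher and none lower, and 41.2% of all tested genes were called.

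The direction of small differences depended on scaling. The median over all tested genes was −0.03 as deposited, −0.14 with upper-quartile and with quantile scaling, and 0.10 with a scaling on neuron markers. The neuron-marker factors were smallest in HPLC 3 (0.808) and LPHC 1 (0.913), the libraries in which long genes were lower. Whether gene length enters this scaling was not tested. With upper-quartile scaling no gene of complexes I to V was called higher and 7 lower, where 55.7% of all tested genes were called, 38.7% lower. With quantile scaling none was higher and 4 lower, where 56.4% were called, 39.4% lower. With neuron-marker scaling 3 were higher and none lower, where 25.0% were called, 22.9% higher and 2.04% lower. The mitochondrial ribosome had none called higher under these 3 scalings and 11, 19 and 0 lower in turn. Relative to the median of all tested genes, complexes I to V lay 0.05 to 0.16 higher in all 24 alternatives, and the mitochondrial ribosome between −0.04 and 0.06. ATPsyngamma and ATPsynC were called in 22 of the 24, not with upper-quartile or quantile scaling, where ATPsyngamma stood at 0.15 and 0.18 (adjusted p = 0.0616 and 0.0574).

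Duplicated paralogs of subunit genes, many of them known from the testis, were low. Of 24 such genes on a list, 10 were in the table and 3 were tested, with none called by limma in either direction. None reached an unadjusted p under 0.05 except COX4L, and edgeR and DESeq2 called none of the 3. COX4L was the highest, with 166, 117, 139.6, 133 and 132 normalised counts on LPHC and 134, 117, 113, 93.2 and 105 on HPLC. The groups overlapped and the difference was −0.29 ± 0.12 (adjusted p = 0.0621), where COX4 itself was higher. COX4L was called lower in 5 of the 24 alternatives. Among them were limma with upper-quartile scaling (adjusted p = 0.0119), quantile scaling (0.00507) and length adjustment (0.0236). Cyt-c1L and UQCR-11L had means of 33.2 and 12.5 over all libraries. The 7 untested paralogs, ND-51L1, ND-51L2, ND-49L, COX6AL, COX7AL, ATPsynbetaL and ATPsynepsilonL, ran from 0 to 11.2 normalised counts, around the level of a few reads. Of 16 testis markers 6 were in the table, at 0.000655% to 0.000976% of counts in all libraries.

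Genes around the chain were counted from lists in the same fit. Of 13 genes of pyruvate dehydrogenase and the citric acid cycle, which feed NADH to complex I, 7 were called higher and none lower, with a median of 0.27 (7 higher and 2 lower with upper-quartile scaling, 8 and 0 with neuron-marker scaling). ScsbetaA, a beta subunit of succinyl-CoA synthetase, had 7227, 7715, 7008, 7411 and 7849.8 normalised counts on LPHC and 14994, 13745, 16406, 14686 and 16899.6 on HPLC. The diets did not overlap, and the difference was 1.04 ± 0.07 (adjusted p = 8.39e-10). Its partner Scsalpha1 was at 0.62 ± 0.07 (adjusted p = 7.64e-07), Mdh2, malate dehydrogenase, at 0.43 ± 0.06 (adjusted p = 4.46e-05) and Pdha, a subunit of pyruvate dehydrogenase, at 0.31 ± 0.06 (adjusted p = 0.00038). These genes were named for having the smallest p of the list. None of their groups of values overlapped between diets, where 29.2% of all tested genes did not overlap.

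Of 8 inner membrane carriers, pore and antioxidant genes, 5 were higher and 2 lower (3 and 2 with upper-quartile scaling, 4 and 0 with neuron-marker scaling). Of all tested genes 40.9% were called, 55.7% with upper-quartile and 25.0% with neuron-marker scaling. The higher genes were Mpc1, a mitochondrial pyruvate carrier, at 0.79 ± 0.06 (adjusted p = 3.69e-09), the phosphate carrier Mpcp2 at 0.29 ± 0.06, the peroxiredoxin Prx3 at 0.29 ± 0.06, porin at 0.17 ± 0.06 and the superoxide dismutase Sod2 at 0.20 ± 0.07. The lower genes were Ant2, the minor ADP/ATP carrier, at −0.45 ± 0.12 (adjusted p = 0.00603) and Mpcp1 at −0.22 ± 0.07. The major carrier sesB was at 0.03 ± 0.07 (adjusted p = 0.706). Ant2 had 76.9 to 104 on LPHC and 63.3 to 72.4 on HPLC, without overlap.

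Of 8 tested assembly factors 1 was higher and 2 lower (0 and 4 with upper-quartile scaling, 0 and 1 with neuron-marker scaling). Here too the share of all tested genes called was 40.9%, and 55.7% with upper-quartile scaling. Sirup, the fly counterpart of the complex II assembly factor SDHAF4, had 7074, 6274, 6365, 5992 and 6133 normalised counts on LPHC and 3349, 4136, 4656, 3812 and 3772 on HPLC. The diets did not overlap, and the difference was −0.70 ± 0.08 (adjusted p = 1.50e-06). Ttc19, which acts on complex III, was lower at −0.24 ± 0.06 (adjusted p = 0.00488), and Scox, which delivers copper to complex IV, higher at 0.22 ± 0.08 (adjusted p = 0.0304). Of 16 tested genes of mitochondrial DNA upkeep, transcription and translation, the elongation factor mEFTu1 was higher at 0.16 ± 0.06, and mTerf3 and mtTFB2 were lower at −0.22 ± 0.09 and −0.28 ± 0.11 (adjusted p = 0.0447, 0.0486 and 0.0487). With upper-quartile scaling none of these 16 was higher and 6 were lower. Among 6 regulators linked to mitochondrial genes, ERR, the oestrogen-related receptor, was higher at 0.20 ± 0.07 (adjusted p = 0.0265). ewg, the fly counterpart of NRF-1, was lower at −0.35 ± 0.06 (adjusted p = 0.000136) and Myc lower at −0.43 ± 0.16 (adjusted p = 0.0496). With upper-quartile scaling none of the 6 was higher and 3 were lower.

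Cell type markers were counted in the same libraries. Photoreceptor markers, 18 of 19 in the table, took 11.8% to 13.0% of counts on LPHC and 8.76% to 10.8% on HPLC, with 6 of 18 lower. No label names the eye, only brain. Muscle markers, all 22 in the table, took 0.851% to 0.935% and 0.717% to 0.738%, with 13 of 21 tested lower. Fat body markers, 18 of 19 in the table, took 0.120% to 0.147% and 0.50% to 0.606%, with 14 of 15 tested higher and 1 lower. Haemocyte markers were higher for 7 of 13, glial markers higher for 3 of 7 and neuron markers lower for 4 of 13. Of all tested genes 22.1% were called higher and 18.9% lower. The marker counts depended on scaling. With upper-quartile scaling 10 neuron, 12 photoreceptor and 17 muscle markers were lower, no glial marker was higher, and 7 haemocyte and 14 fat body markers were higher. With neuron-marker scaling no neuron or photoreceptor marker and 9 muscle markers were lower, and 3 glial, 12 haemocyte and 14 fat body markers were higher. There 2.04% of all tested genes were lower and 22.9% higher. Every gene in the table, marker or not, had a read in at least 6 libraries. The part of tissue makeup in the differences of the subunit genes was not tested.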

How the data were processed

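RNA from dissected brains was sequenced in 10 libraries, 5 per diet, grouped by the diet in their titles. The deposited values are a signal, normalised read counts with 1 row per gene. The submitters' processing notes name the aligner HISAT2. Not given in the sources used here are its version, how reads were counted and on which strand, the annotation and the build, and coordinates are left out. Within a tolerance of 1e-06, 100% of the deposited values were whole reads divided by a size factor per library, as DESeq2 computes it. Every gene has a read in at least 6 libraries. Columns of no sample numbered 0.

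limma 3.58.1 (limma-trend, robust, R 4.3.3) was fitted on log2(value + 1) for genes with a mean of at least 10, with Benjamini-Hochberg adjustment. This scale understates changes of low genes. edgeR 4.0.16 (quasi-likelihood; 2158 genes higher, 1874 lower) and DESeq2 1.42.0 used the recovered reads. limma and edgeR, but not DESeq2, were checked on simulated data without the shift by gene length seen here. That check required recovery of changes of 2-fold or more, larger than those of the subunit genes. Exon lengths come from the Ensembl annotation, matched by symbol for 142 of 142 subunit genes and 11080 of 11621 genes. By that annotation 72 of the 142 overlap exons of another gene, 67 of them on the other strand, and reads of such pairs may not be told apart.

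The subunit genes, the lists and the tests were chosen with earlier results of these data known. No test was made over a list. Named genes were all called subunits, ATPsyngamma, ATPsynC and mRpL46, in each complex the 4 with the smallest p, the 2 most abundant and the lowest tested, all paralogs, and up to 4 of each other list by p. Other names (ND-MLRQ, mRpS18A, ND-15, ND-23, ND-39, ATPsynG, mRpL23, mRpL33, mRpS16, sesB, porin, Sod2, Mpcp1) were added once their values were known. As alternatives the pseudocount was 0.5 or 5, the filter was dropped or raised to 50, and the replicate number entered as a block. Libraries were also scaled by TMM, by the upper quartile, by quantiles or on neuron markers. Further, empirical Bayes was plain, with neither the trend nor the robust option, the count models replaced limma, and each library was left out. Length adjustment (lowess per library, span 0.3) and leaving out LPHC replicate 1 with HPLC replicate 3 were added after the data were examined. Intervals and floors cover counting error or library spread only.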

Additional observations from a re-analysis of the deposited data

Results flagged for a closer look

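A total of 110 groups of 5 library values were examined for a library far from the other 4, by Dixon's ratio with a critical value of 0.71, which chance passes in about 1 of 20 groups. It was passed in 11. In 6 of these the library was HPLC 3 and stood above the others. ATPsynO had 8816 normalised counts in HPLC 3 against 7107 to 7530.5 in the other HPLC libraries, COX4 had 14896 against 11960.5 to 12538, and ND-B14.5A had 2055 against 1558 to 1673. mRpL43 had 468 in HPLC 3 against 331 to 359.8 in the others, mRpL9 had 586 against 490.2 to 514, and the large mitochondrial ribosome subunit summed to 26124 there. Without HPLC replicate 3 the differences of ATPsynO and COX4 were both 0.15 (adjusted p = 0.0528 and 0.0619).

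The other flagged values were single libraries of single genes. ATPsynbeta stood low in HPLC 1, at 29855 against 33775 to 35309. LPHC 3, the shallowest library, held 19.5 normalised counts of UQCR-11L against 10.4 to 12.1, 25.1 of mRpL34 against 11.1 to 13.1, and 664 of mRpS29 against 746 to 776. ND-51L1 had 6.85 in HPLC 4 against 3.06 to 3.38, which is near the level of 3 reads.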

How the results depend on the processing

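No called subunit gene changed sign under the 24 alternatives, and the counts of calls moved most. Complexes I to V had 9 genes higher and 1 lower as reported. TMM gave 0 lower, DESeq2 2 lower, plain empirical Bayes 4 higher, the replicate block 5 higher and 0 lower, neuron-marker scaling 3 and 0, upper-quartile scaling 0 and 7, and quantile scaling 0 and 4. Length adjustment gave 15 and 3, and leaving out both LPHC replicate 1 and HPLC replicate 3 gave 2 lower. Leaving out 1 library gave 2 to 11 higher and 0 to 2 lower, and over all tested genes 1972 to 2216 higher and 1478 to 1917 lower. For the mitochondrial ribosome, with none called as reported, upper-quartile scaling gave 11 lower and quantile scaling 19 lower. Length adjustment gave 1 higher and 4 lower, leaving out both libraries 1 higher, and leaving out 1 library 0 to 1 higher and 0 to 1 lower.

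The median of complexes I to V was 0.08 as reported, 0.21 with neuron-marker and −0.0335 with upper-quartile scaling, and 0.03 without HPLC replicate 3. That of the mitochondrial ribosome, −0.00 as reported, was 0.13, −0.11 and, with quantile scaling, −0.12, and −0.06 without HPLC replicate 3. Over all genes 1866 were called lower as reported, 202 with neuron-marker scaling, 3831 with upper-quartile and 3902 with quantile scaling. The scalings differ by construction in the level they hold equal, and the cause of the other shifts was not tested.

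No pairing of libraries by replicate number was seen: libraries of the same number correlated at −0.025 to 0.005 across genes. Correlations near 0 cannot exclude that libraries were handled in pairs. Depth limits the 7 untested paralogs, whose values are a few reads, and the labels name no batch.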

Other observations

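The proteins of the cytosolic ribosome, a list added after the data were examined, give a second set of short ribosomal genes (median 921.5 exon bases). Of 86 tested genes 68 were called higher on HPLC and 1 lower, with a median log2 difference of 0.31, where none of the 72 mitochondrial ribosomal genes was called. Of all tested genes 22.1% were called higher and 18.9% lower. With length adjustment 74 of the 86 were higher and the median was 0.28, where 25.9% of all tested genes were higher. Counts of this list with other scalings are not given here. The difference between these sets was not tested.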
